A study of Homo sapiens with 6 samples.

Results

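The genes described here are the 10 kinases, cyclins and phosphatases that control entry into mitosis, chosen by name: CDK1, CCNB1, CCNB2, CCNA2, CDC25A, CDC25B, CDC25C, WEE1, PKMYT1 and PLK1. Each was found under its symbol once, so that 10 of the 63236 genes in the table are described. The RNA came from FUJIOKA, an established human acute myeloid leukaemia line, stably carrying a Tet-inducible shRNA that doxycycline switches on. In 3 libraries, shNEG, the shRNA is a scrambled control, and in the other 3, shSPINK2, it targets SPINK2. The labels name a pair of SPINK2 shRNAs without saying which of them each library carries, whereas the study's methods describe a single SPINK2 shRNA, and nothing states whether the libraries of a group came from separate cultures. The authors' mean over all 6 libraries is the value used here, so shNEG and shSPINK2 are not compared, no spread between libraries can be given, and a difference between genes is given as a ratio with no test.

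CDK1 is the kinase whose activity drives cells into mitosis, and it is active only when bound to a cyclin. Cyclin A2 (CCNA2) and the B-type cyclins (CCNB1 and CCNB2) are its partners. WEE1 and PKMYT1 hold the complex inactive by phosphorylating CDK1, and the CDC25 phosphatases remove that phosphate. PLK1 promotes the switch by activating CDC25C and marking WEE1 for destruction. Transcripts of most of these genes accumulate towards G2 and mitosis, so that their level in a bulk culture depends both on the share of cells in those phases and on the amount per cell, which cannot be told apart here.

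Several of these genes are known targets of complexes that bind the cell cycle genes homology region (CHR) together with CCAAT boxes bound by NF-Y. Some are targets of E2F. The CHR was searched here only as the word TTTGAA. RefSeq promoter windows of GRCh38.p14, running from 250 bases before to 50 bases after the start, were matched by symbol for 8 of the 10 genes, all but WEE1 and PKMYT1. For each gene the window at the start of its canonical transcript was used. The sequences are shown because they differ in which of the words they hold. They are read 5′ to 3′ on the strand of the gene and end at the base before the start unless stated, and capitals mark CHR, CCAAT and E2F words on either strand. For CCNB2 (chr15:59105016-59105145, plus strand), CCNB1 (chr5:69167020-69167149, plus strand), CCNA2 (chr4:121823884-121824013, minus strand), CDC25A (chr3:48188418-48188547, minus strand) and CDC25B (chr20:3796180-3796309, plus strand), 130 bases are given.

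CCNB2: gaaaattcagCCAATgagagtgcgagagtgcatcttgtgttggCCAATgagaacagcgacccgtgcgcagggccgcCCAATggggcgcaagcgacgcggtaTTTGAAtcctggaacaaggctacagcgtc
CCNB1: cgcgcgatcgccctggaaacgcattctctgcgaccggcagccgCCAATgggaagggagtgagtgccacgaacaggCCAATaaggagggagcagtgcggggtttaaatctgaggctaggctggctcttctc
CCNA2: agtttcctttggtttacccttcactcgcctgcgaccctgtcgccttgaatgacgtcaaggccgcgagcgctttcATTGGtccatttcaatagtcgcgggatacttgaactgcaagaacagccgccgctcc
CDC25A: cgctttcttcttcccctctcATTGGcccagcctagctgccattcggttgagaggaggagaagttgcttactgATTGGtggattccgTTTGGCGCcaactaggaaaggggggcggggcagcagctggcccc
CDC25B: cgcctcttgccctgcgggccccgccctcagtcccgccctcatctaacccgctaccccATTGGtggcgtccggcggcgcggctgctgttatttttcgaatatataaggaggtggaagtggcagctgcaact

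For CDK1 (chr10:60778448-60778477, plus strand), CDC25C (chr5:138331817-138331846, minus strand) and PLK1 (chr16:23678848-23678877, plus strand), only the 30 bases around the last CHR word before the start are given. The reason is that more than 30 of the 130 bases before the start lie in annotated exons of other transcripts or genes (130 in CDK1 and in PLK1, 68 in CDC25C). Of the sequences given in full, 15 bases of CCNB1, 20 of CCNB2 and 19 of CDC25B lie in such exons. The stretches of CDC25C and PLK1 end short of the base before the start, so distances to the start cannot be counted from their last base.

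CDK1: ccctttagcgcggtgagTTTGAAactgctc
CDC25C: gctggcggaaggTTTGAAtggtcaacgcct
PLK1: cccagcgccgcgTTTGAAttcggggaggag

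The CHR word was found in the windows of 4 of the 8 genes, CDK1, CCNB2, CDC25C and PLK1, and in 15.2% of all 35116 promoter windows of the same length. It began 29 bases before the start in CCNB2 and in PLK1, 30 bases before it in CDC25C and 13 bases before it in CDK1, whose window held 3 copies on both strands together. The windows of CCNB1, CCNA2, CDC25A and CDC25B did not hold these letters. Other spellings of the element were not searched, so a window without this word may still hold a CHR. Some genes have further RefSeq start windows: both windows of CDK1 hold the CHR word, but only 2 of the 4 of CDC25C do, and none of the 4 of CDC25B. The windows used as background include every start, not only canonical ones. A match describes the letters only.

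A CCAAT box on either strand was found in 8 of the 8 windows at canonical starts, against 34.6% of all windows. Over all their windows, CDC25B and CDC25C each held a box in 2 of 4. At least 2 boxes were found in CDK1, CCNB1, CCNB2 and CDC25A, against 10.8% of all windows. The boxes of CDK1 and of CCNB1 were spaced 32 bases apart, from first base to first base. CCNB2 held 4 boxes, of which the 3 nearest the start were spaced 33 bases apart, while those of CDC25A were 52 bases apart. An E2F word (TTTGGCGC, TTTCGCGC, TTTGCCGC or TTTCCCGC) was found in CDK1 and CDC25A, in 2 of 8 windows against 3.31% of all windows. No CHR, CCAAT and E2F matches shared a base in these windows.

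Levels were compared between genes as the authors' mean normalised count per kilobase of the canonical transcript. On this scale 9 of the 10 genes lay above the median of 351.8, taken over the 12444 protein-coding genes whose mean reached 10 or more. CDC25C lay under it. The 10 genes covered an 11-fold range, from CCNB2 at 2681 to CDC25C at 244.5 per kilobase. Together they took 0.0861% of the summed means of all genes.

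CDK1, on chromosome 10 (60778331 to 60794852, plus strand, 8 exons), had a mean normalised count of 3899, or 2064 per kilobase, higher than 87.9% of the coding genes. Per kilobase of transcript the cyclins that bind it lay close to it. CCNB2 (chromosome 15, 59105126 to 59125045, 9 exons) had a mean of 3990 and CCNB1 (chromosome 5, 69167135 to 69178245, 9 exons) a mean of 3616, or 2681 and 1782 per kilobase. CCNA2 (chromosome 4, 121816444 to 121823883, minus strand, 8 exons) had the highest mean of the 10, 5885, and 2142 per kilobase. On that scale the ratio to CDK1 was 1.30 for CCNB2, 1.04 for CCNA2 and 0.863 for CCNB1. With coding length these ratios were 0.764, 1.04 and 0.636, and with the union of all exons 1.45, 2.15 and 1.49. The 3 cyclins summed to 3.20 times CDK1 per kilobase of transcript, or 5.09 times with the union of all exons as length. CCNB2 stood above CCNB1 per kilobase of transcript, but at 0.975 of it when all annotated exons were counted as length, so that the order of these cyclins rests on the transcript models.

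PLK1, on chromosome 16 (23677656 to 23690367, plus strand, 10 exons), had a mean of 5044, or 2335 per kilobase. That was the second highest level of the 10 on both scales and 1.13 times CDK1 per kilobase of transcript. With coding length PLK1 ranked 4 and stood at 0.637 of CDK1. With the union of all exons it also ranked 4, at 1.06 times CDK1. CDK1, the 3 cyclins and PLK1 held ranks 1 to 5 per kilobase of transcript, from 1782 to 2681, and lay at or above the 85.8th percentile of the coding genes.

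**Figure D1:**
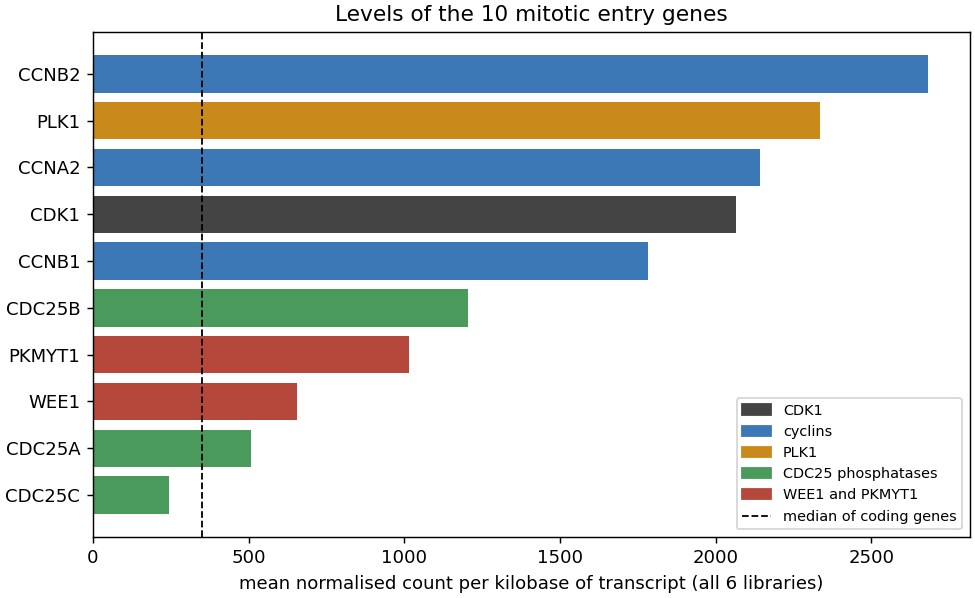
Mean normalised count per kilobase of canonical transcript over all 6 libraries (x axis) for the 10 genes (y axis), coloured by role, with a dashed line at the median of coding genes, 351.8. CDK1, the cyclins and PLK1 lie between 1782 and 2681, the other genes between 244.5 and 1203, and CDC25C alone lies left of the line.

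The 3 CDC25 phosphatases were spread more widely. CDC25B (chromosome 20, 3786772 to 3806121, plus strand, 16 exons), known for starting the activation of CDK1 at the centrosome, had a mean of 3753 and 1203 per kilobase. CDC25A (chromosome 3, 48157146 to 48188417, minus strand, 15 exons), which also acts at the entry into S phase, had a mean of 1948 and 506.8 per kilobase. CDC25C (chromosome 5, 138285269 to 138338355, minus strand, 14 exons), the substrate of PLK1, had the lowest mean of the 10, 511.8, and lay at the 41.5th percentile of coding genes. CDC25B was thus 2.37-fold higher than CDC25A and 4.92-fold higher than CDC25C per kilobase. The order CDC25B, CDC25A, CDC25C was found with each of the length settings tried.

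Of the kinases that oppose them, PKMYT1 (chromosome 16, 2968024 to 2980479, minus strand, 9 exons), which is bound to membranes, had a mean of 2090 and 1014 per kilobase. WEE1 (chromosome 11, 9573670 to 9593457, plus strand, 11 exons), the nuclear kinase, had a mean of 2346 and 653.9 per kilobase. PKMYT1 was 1.55-fold higher than WEE1 per kilobase but at 0.891 of it in mean count. Summed over members, the phosphatases stood at 1955 and the inhibitory kinases at 1668 per kilobase, a ratio of 1.17, which was 2.35 with the union of all exons as length.

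Reads could be shared with other genes at some of these loci, and the sources used here do not state whether counting used strand. PKMYT1 shares 1228 exonic bases with PAQR4 on the other strand, which had a mean of 1434, and 357 with KREMEN2, with a mean of 465.8. CDC25C shares 293 exonic bases with FAM53C, which had a mean of 2676 and so exceeded CDC25C itself. CCNA2 shares 254 with EXOSC9, at a mean of 1452. PLK1 shares 553 exonic bases with a lncRNA at a mean of 2.31 and 58 with ERN2 at 0.169. CCNB2P1, a processed pseudogene named after CCNB2, had a mean of 0.165. The part of these overlaps in the levels was not tested.

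The regulators around these genes were described from lists of known pathway members, for which the genes named are the lowest and highest of each list or were picked after their values were seen. For comparison, the median of the 10 members was 1493 per kilobase. The partners of CDK1 and the kinase that activates it were at a median of 2288, with 5 of 5 genes at a mean of at least 10. CKS1B, a small subunit that docks substrates to CDK1, was highest at 6369 and MNAT1, the assembly factor of the CDK-activating kinase, lowest at 300.2. Both CKS1B and CKS2, at 3061, stood above the highest of the 10 members. Among 4 genes that activate Aurora A and PLK1, TPX2 was highest at 2395, AURKA stood at 1542 and CEP192 was lowest at 257.9.

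The Greatwall pathway keeps the phosphatase PP2A-B55 inactive during mitosis. The 9 genes listed for this pathway and for the subunits of PP2A-B55 had a median of 1293 per kilobase. ENSA, an inhibitor of PP2A-B55, was highest at 5728, and MASTL, the Greatwall kinase itself, was lowest at 194.6, under CDC25C. Among 12 genes of the factors that transcribe G2/M genes the median was 829.7. TFDP1, the partner of E2F proteins, reached 15118, MYBL2 2634 and FOXM1 1402, whereas LIN54, the CHR-binding subunit of the MuvB complex, was lowest at 182.2.

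Of 14 genes listed under checkpoint control of CDC25 and WEE1, not all of which act on these directly, 6 stood above the highest member. All 6 were 14-3-3 genes, led by YWHAQ at 10186 per kilobase. The kinases CHEK1 and CHEK2 stood at 513.8 and 767.7. CDKN1A, the CDK inhibitor induced by p53, was lowest at 27.14. Among 14 genes for the degradation of cyclins, CDC25A and WEE1, UBE2C was highest at 5821 and CDC20 stood at 3960, both partners of the anaphase-promoting complex, while BTRC, which recognises WEE1 and CDC25A, was lowest at 153.7.

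Relatives of the members that act outside mitotic entry were less uniform, with 12 of 14 at a mean of at least 10. CDK4 stood at 2785, CDK2 at 1734 and CDK6 at 1094 per kilobase, beside CDK1 at 2064. The germline relatives stood far lower, with CCNA1 at 2.69, WEE2 at 0.435 and CCNB3 at 16.95 per kilobase. Their means were 4.65, 1.33 and 79.60. Of the other Polo-like kinases, PLK4 stood at 570.1, PLK3 at 103.0 and PLK2 at 16.23 per kilobase, beside PLK1 at 2335.

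Markers of the lineage of the line were read from the same mean, which pools shNEG and shSPINK2. The paper reports raised myeloid surface markers and fewer cells in S and G2/M phases after SPINK2 knockdown. The pooled mean is therefore not the level of either group. LYZ stood at 29595, SPI1 at 7767, CD33 at 5319, PTPRC at 1713, FLT3 at 734.2 and MPO at 573.2 per kilobase. On the same scale CD34 stood at 2.46 and KIT at 0.129, from means of 19.56 and 0.666. Of 10 markers of T, B, erythroid, epithelial and fibroblast cells, 7 had a mean under 10, among them HBB, EPCAM and COL1A2 listed at 0, and the highest, KRT8, stood at 53.95 per kilobase. SPINK2 had a mean of 32.27 over all 6 libraries, which cannot check the labels because both groups are pooled in it. The means summed to 38425214 over all genes, which is the average depth on the authors' normalised scale, and 31016 genes had a mean of 0.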

How the data were processed

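Libraries of 3 shNEG and 3 shSPINK2 FUJIOKA samples were made from total RNA with an mRNA library kit and sequenced as paired reads of 150 bases. The authors aligned reads to GRCh38 with STAR (2.7.11 in the submitters' processing notes), counted them per gene with featureCounts and normalised them with DESeq2 (1.40.0). The annotation release and strand setting are not given in the sources used here. The signal deposited by the authors is the mean, over all 6 libraries, of counts divided by size factors. The other 6 columns hold the authors' comparison of the groups (fold change, its standard error, statistic, p-value, adjusted p-value and a status). No value reported here was computed from them. Per-library counts had earlier been rebuilt with the help of those columns, and were set aside, but their results had been seen when the text was written. The planned tests between the groups need values per library, which the deposited mean does not give, and none is reported. A linear model fit between the groups had been run on the rebuilt counts under several settings, and was set aside with them.

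Gene IDs without version matched GENCODE release 44 for 91.1% of genes, which gave positions and lengths. Levels were divided by the exonic length of the canonical transcript in kilobases, and percentiles were taken among protein-coding genes with a mean of at least 10. Words were searched on both strands of RefSeq windows of 300 bases, after a check on simulated sequences. The named genes are the 10 members, SPINK2 and, in place of the planned choice by difference between groups, the lowest and highest of each list, with others picked after their values were seen. The members and lists were chosen with earlier results of these data known. Python 3.11.15, numpy 2.4.6, pandas 2.3.3 and matplotlib 3.10.9 were used.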

Additional observations from a re-analysis of the deposited data

How the results depend on the processing

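No paired analysis was possible because the deposited mean pools all libraries. For the same reason no alternative planned for the tests between the groups is reported. The settings tried on the rebuilt counts were set aside with those counts. The alternatives below were chosen after seeing the data. A value was taken as moved when it changed by over 1.5 times, since no spread between libraries was at hand. With the union of all annotated exons as length, the ratio of summed phosphatases to inhibitory kinases was 2.35 and that of cyclins to CDK1 was 5.09, against 1.17 and 3.20 with the canonical transcript. The union differs from the canonical transcript by a different amount in each gene. The ratio of PLK1 and of each cyclin to CDK1 also moved with coding length, with union length or with both. The count of members above the median, the 11-fold range, the percentile of each member and the number of windows with each word moved by less than that under coding length, union length, no length, a minimum mean of 1 or 50, or the 250 bases before the start, as far as each applies. Counting error could not be given, since the mean carries no depth per library.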
